A study of Mus musculus with 2 samples.

Results

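The collagen genes of the embryonic mouse liver were taken as the protein-coding genes of the GENCODE annotation on mm10 whose symbol consists of Col, a type number, the letter a and a chain number. The rule found 44 genes on 15 chromosomes, among 21474 protein-coding genes and 43346 mouse gene entries in the deposited tables. Total RNA was sequenced from livers of embryonic day 12.5, of strain B6NCrl, labelled as healthy and as a mix of male and female embryos with no genetic change or treatment named. The 2 libraries form a single group: replicate 1 was a pool of 120 embryos and replicate 2 a separate pool of 88 embryos, each started from 10 ng of RNA. There was no second group, and each pool was 1 library, so differences between the pools carry no test.

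Collagens are extracellular proteins whose chains wind around each other in threes, and each chain carries a long repeat in which glycine returns at a fixed spacing. Fibrillar collagens form the tensile fibrils of connective tissue, and fibril-associated collagens decorate the surface of those fibrils. Type IV collagen forms the sheet of basement membranes, type VI forms beaded microfilaments, and other members form hexagonal lattices or anchoring fibrils, or sit in the cell membrane. In the liver the fibrillar collagens are chiefly products of stellate cells and other mesenchymal cells, and the basement membrane collagens also of endothelium and of the outer mesothelium.

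The repeat that unites the family was read from the coding sequences of GENCODE M21 on GRCm38/mm10. It is shown here for the 3 most abundant members and for both main type IV chains. The length of the unbroken repeat sets the fibrillar class apart from the other classes, which overlap in it. Capitals mark the glycine codons (GGN) that open each 9-base unit, and positions count from 1 at the first base of the start codon.
Col1a1, coding bases 502 to 564: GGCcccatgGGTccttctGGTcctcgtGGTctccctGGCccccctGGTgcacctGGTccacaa
Col1a2, coding bases 289 to 351: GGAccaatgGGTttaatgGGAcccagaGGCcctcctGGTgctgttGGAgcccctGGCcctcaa
Col3a1, coding bases 490 to 552: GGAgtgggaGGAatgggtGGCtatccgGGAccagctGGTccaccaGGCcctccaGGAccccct
Col4a1, coding bases 451 to 513: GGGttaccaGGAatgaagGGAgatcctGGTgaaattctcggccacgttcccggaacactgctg
Col4a2, coding bases 2887 to 2949: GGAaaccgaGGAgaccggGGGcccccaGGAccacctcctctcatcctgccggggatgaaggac
The 3 fibrillar stretches are the first 7 units of the longest run in each gene. The type IV stretches are the last 4 units of the longest run and the bases after it, where the glycine codon fails to return at the 9-base spacing.

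All 44 members held an in-frame run of at least 20 such units. Of the 21592 coding genes scanned, 19 others were counted with such a run. Other genes whose run was made up largely of glycine codons were left out, a limit not applied to the members. The 11 fibrillar genes had longest runs of 216 to 344 units (median 338), with Col3a1 at 344 and the shorter Col24a1 and Col27a1 at 216 and 217. The 6 type IV genes had longest runs of only 39 to 66 units, but 22 to 27 separate runs of at least 5 units each, which together covered 75.4% to 80.0% of their coding bases. In the fibrillar genes such runs covered 53.5% to 77.2% of coding bases (median 61.3%), in 2 or 3 pieces. At the low end, Col12a1 held 8.22% of its coding bases in such runs and Col6a3 10.1%, both being long chains of 3065 and 3284 codons. Col9a1, Col9a2 and Col9a3, the chains of type IX collagen, shared a longest run of 113 units. These are properties of the annotation and use no measured value.

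**Figure D1:**
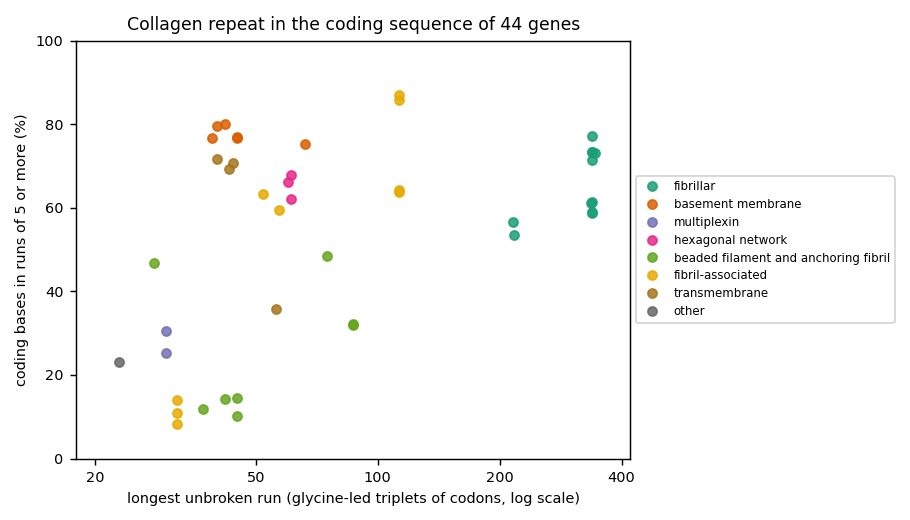
Each point is 1 of the 44 collagen genes; the horizontal axis (log scale) is the longest unbroken run of 9-base units opening with a glycine codon, the vertical axis the percentage of coding bases in runs of at least 5 units, and colours give the structural class. The fibrillar genes stand at 216 to 344 units, and the type IV genes at 39 to 66 units with 75.4% to 80.0% of their coding bases in runs.

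The libraries held 37.6 M and 34.7 M expected counts, of which spike-in RNAs were 2.94% and 3.19%. Expected counts are reads shared out among transcript models by estimation, and TPM divides them by effective length and by the library's total, so levels are compared between genes in TPM. The collagen genes drew 83891 and 82378 expected counts. Hepatoblast markers were abundant with Afp at 5312 and 5136 TPM and Apoa1 at 1253 and 1262 TPM. In a bulk sample, fewer cells of a type and less RNA per cell cannot be told apart.

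Collagen RNA was a small part of the liver transcriptome at this stage. Summed over the 44 genes it came to 527 and 557 TPM in replicates 1 and 2, or 0.0573% ± 0.00237 (SD, n = 2) of the TPM of all mouse genes. A gene is called detected here when its TPM was at least 1 in both libraries. By that limit 23 of the 44 members were detected, where 54.5% of all protein-coding genes were, so the count of members lay near the background. The median member had a mean of 1.55 TPM, against 2.015 TPM for the median protein-coding gene. In both libraries 10 members were above 10 TPM and 2 above 100 TPM. No member was without a read, but 3 had at most 3 expected counts in each library.

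**Figure D2:**
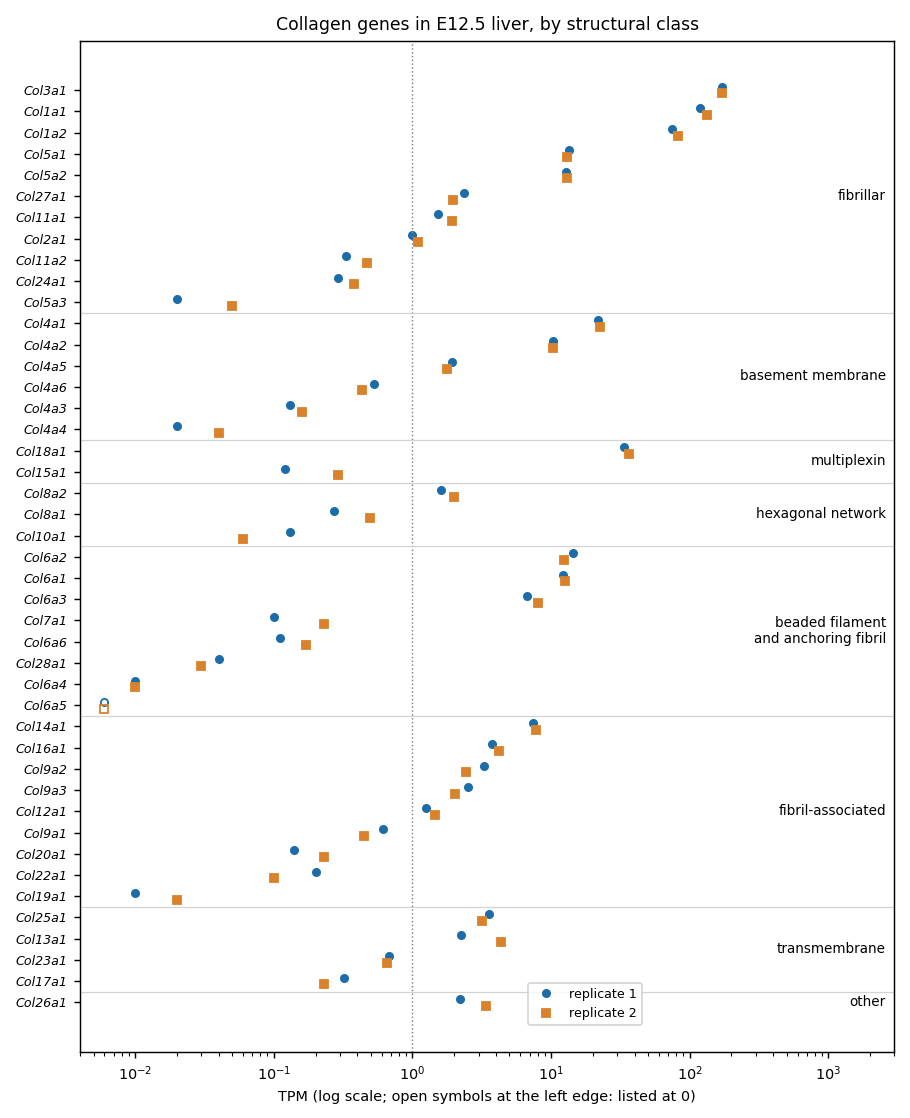
TPM of each of the 44 collagen genes (log scale) in replicate 1 (circles) and replicate 2 (squares), grouped by structural class; the dotted line is 1 TPM, and open symbols at the left edge mark a gene listed at 0. Col3a1, Col1a1 and Col1a2 stand above the other 41 genes, and every class of more than 1 gene holds members on both sides of the line.

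Fibrillar collagens made up most of the collagen RNA. The 11 genes of the class held 74.9% of collagen TPM in replicate 1 and 75.0% in replicate 2 (mean 75.0% ± 0.115, SD), although 7 of them were detected. Col3a1, Col1a1 and Col1a2 alone held 68.9% and 69.3%. Multiplexins held 6.52% ± 0.158 and basement membrane collagens 6.49% ± 0.159, which differed by less than their spread, and basement membrane collagens stood higher in expected counts (8.19% against 6.08%), in coding models (6.72% against 6.45%) and in reads per length of the longest coding model (7.21% against 5.56%). The beaded filament and anchoring fibril class held 6.20% ± 0.262, which by the longest model was 5.72% and above the multiplexins. Smaller shares were those of fibril-associated collagens (3.51% ± 0.185), transmembrane collagens (1.40% ± 0.148), Col26a1, which was placed in no class (0.512% ± 0.132), and the hexagonal network class (0.419% ± 0.0532).

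**Figure D3:**
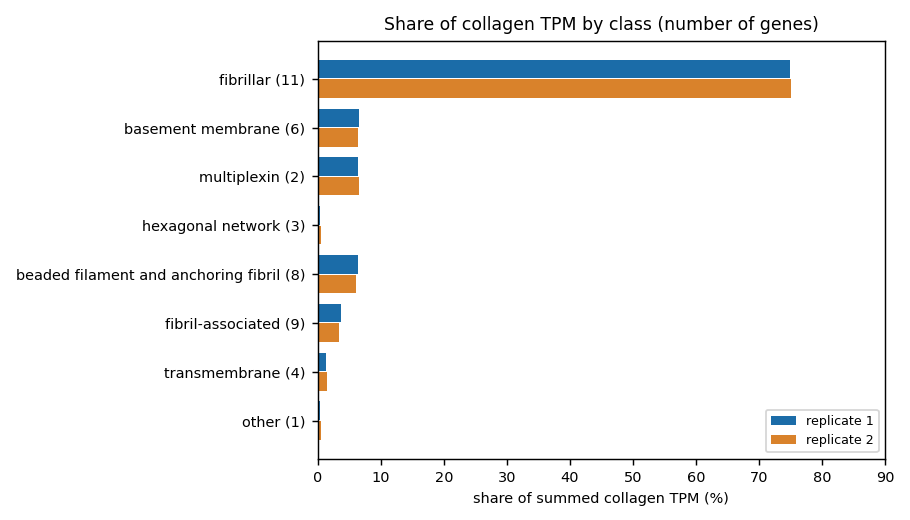
Share of the summed collagen TPM (percent, horizontal axis) held by each structural class in replicate 1 and replicate 2, with the number of genes in brackets. The fibrillar bars reach 74.9% and 75.0%, and no other class passes 7%.

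Col3a1, the single chain of type III collagen in the fine reticular fibrils of soft organs, was the most abundant member. It lies on chromosome 1 (45311538 to 45349706, plus strand, mm10) and had 171 and 169.7 TPM, a mean of 170.2 ± 0.643 (SD, n = 2). Both libraries gave nearly the same level, which ranked 666 among protein-coding genes, above 96.9% of them. Col1a1, the main chain of type I collagen, lies on chromosome 11 (94936224 to 94953042, plus strand) and had 118 and 133 TPM. Col1a2, its partner chain on chromosome 6 (4504814 to 4541544, plus strand), had 74.6 and 82.8 TPM. Both type I chains were lower in replicate 1, and the order of the 3 genes was the same in each library.

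Type V collagen, which is built into type I fibrils and helps to start them, was well below type I. Col5a1 on chromosome 2 had 13.4 and 13.0 TPM and Col5a2 on chromosome 1 had 12.8 and 13.1 TPM, so its main chains stood at one level. Its further chain Col5a3 was among the members below 0.1 TPM. Col27a1 and Col24a1 are fibrillar chains with a shorter helix: Col27a1 had 2.37 and 1.97 TPM, and Col24a1 had 0.29 and 0.38 TPM.

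The remaining fibrillar members are chains best known from cartilage, and they were low. Col11a1 had 1.54 and 1.93 TPM and Col11a2 0.33 and 0.47 TPM. Col2a1, the chain of cartilage fibrils, had 0.99 and 1.09 TPM and was the one member above 1 TPM in a single library. It lay just outside the limit for detection, and Col12a1, with 1.26 and 1.46 TPM, just inside. The type IX chains, which sit on cartilage fibrils, are fibril-associated by class: Col9a2 had 3.26 and 2.44 TPM, Col9a3 2.52 and 2.04 TPM, and Col9a1 0.61 and 0.45 TPM. Of 9 cartilage and bone markers 1 was detected, Sox9 at 2.12 and 2.38 TPM, and Hapln1 was next at 0.89 and 0.75 TPM. Their summed level was 4.31 and 4.66 TPM. Acan, the large proteoglycan of cartilage, had 1 read in each library and was listed at 0 TPM, and Ibsp and Bglap of bone had no read, which allows up to 3 counts. The other 4 markers, Runx2, Sp7, Comp and Matn1, lay between 0.11 and 0.64 TPM in single libraries. All but Sox9 and Hapln1 were named after their values were seen, and the part of skeletal tissue in the cartilage-type collagens was not tested.

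Among the basement membrane collagens, Col4a1 and Col4a2, which build the type IV network found in nearly all basement membranes, were the abundant pair. Col4a1 (chromosome 8, 11198423 to 11312826, minus strand) had 21.9 and 22.7 TPM, and Col4a2 (11312805 to 11449287, plus strand) had 10.3 and 10.4 TPM. Col4a5 had 1.92 and 1.77 TPM and Col4a6 0.53 and 0.43 TPM. Col4a3, which with Col4a5 belongs to the network of the kidney filter, had 0.13 and 0.16 TPM, and the last type IV gene was below 0.1 TPM. The class thus held 3 detected members of 6, and its share of TPM came mainly from 2 genes.

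Type IV genes lie in head-to-head pairs, and within a pair the levels were unequal. Col4a1 and Col4a2 point away from each other with first exons that overlap by 22 bp, yet Col4a1 was 2.13 and 2.19 times as high. Whether the counting used strand is not given in the sources used here, so reads from these overlapping bases cannot be told apart. Col4a6 and Col4a5 on chromosome X start 1308 bp apart, with Col4a5 being 3.62 and 4.12 times as high. Col4a4 and Col4a3 start 71 bp apart, and both were low. Elsewhere, Col3a1 and Col5a2 lie tail to tail 24614 bp apart on chromosome 1 and differed 13.2-fold in mean TPM, while Col6a2 and Col6a1 on chromosome 10, on the same strand 85161 bp apart, differed 1.09-fold.

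Col18a1, a multiplexin of basement membranes whose end releases the fragment endostatin, was the fourth most abundant collagen gene. It had 33.7 and 36.6 TPM, a mean of 35.1 ± 2.09 (SD, n = 2), and ranked 3199 among protein-coding genes. Its relative Col15a1 had 0.12 and 0.29 TPM from 14 and 31 expected counts. Col18a1 was thus 280 and 126 times as high, a ratio set by the few reads of Col15a1.

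The Col18a1 level came from 2 start regions that give different protein beginnings. The distal start (chromosome 10, 77166548, minus strand) gives a chain of 1315 codons, and the internal starts (77113946 and 77113705) give chains of 1774 and 1527 codons that share at least the last 3866 coding bases with it. The first 60 coding bases are shown because they differ between the forms, with the start codon in capitals.
Col18a1, distal start: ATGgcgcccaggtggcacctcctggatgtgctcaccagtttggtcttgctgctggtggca
Col18a1, internal start: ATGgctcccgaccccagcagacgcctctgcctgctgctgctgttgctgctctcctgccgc
The distal form had 23.9 and 26.3 TPM, or 70.9% and 71.8% of the gene. The internal forms together had 7.45 and 8.48 TPM, or 22.1% and 23.2%. The distal form was 3.20 and 3.10 times as high, so the balance of starts was close in both pools. These are estimates by transcript model, and the models share most of their sequence.

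Type VI collagen carried the class of beaded filaments and anchoring fibrils. Col6a2 had 14.5 and 12.5 TPM, Col6a1 12.2 and 12.5 TPM, and Col6a3, the long chain of the filament, 6.71 and 8.06 TPM. Col6a6 had 0.11 and 0.17 TPM, and its neighbours Col6a5 and Col6a4 in the same cluster on chromosome 9 were among the 3 members with at most 3 expected counts, with the fibril-associated Col19a1; these 3 were named after their values were seen. Col7a1, the anchoring fibril of skin, had 0.10 and 0.23 TPM.

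In the hexagonal network class Col8a2 was detected, at 1.61 and 1.99 TPM. Its partner chain Col8a1 had 0.27 and 0.49 TPM, which was 0.168 and 0.246 times the level of Col8a2. The remaining gene of the class, the chain of growth plate cartilage, was below 0.1 TPM.

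Among the fibril-associated collagens, Col14a1, which binds the surface of type I fibrils, was highest with 7.46 and 7.85 TPM. Col16a1 had 3.74 and 4.22 TPM and Col12a1, another chain of type I fibril surfaces, 1.26 and 1.46 TPM. With Col9a2 and Col9a3 these made 5 detected members of 9. Col20a1 and Col22a1 were at 0.10 to 0.23 TPM.

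Of the transmembrane collagens, Col25a1 had 3.57 and 3.15 TPM and Col13a1, known from the junction of nerve and muscle, 2.24 and 4.32 TPM. Col23a1 had 0.68 and 0.65 TPM and Col17a1, a part of epithelial hemidesmosomes, 0.32 and 0.23 TPM. Col26a1 had 2.21 and 3.37 TPM. The 7 members with a mean below 0.1 TPM ranged from 0 to 0.13 TPM in single libraries, and 3 of them were in the beaded filament and anchoring fibril class.

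Chains that assemble into one molecule were set side by side as ratios of TPM. Col1a1 was 1.58 and 1.61 times Col1a2, a mean of 1.59 ± 0.0203 (SD, n = 2), and Col4a1 was 2.16 ± 0.0408 times Col4a2. Col5a1 was 1.02 ± 0.0409 times Col5a2 and Col6a1 0.925 ± 0.111 times Col6a2, so neither pair departed from equal levels beyond the spread of the libraries. Col9a2 was 1.24 ± 0.0690 times Col9a3. These ratios compare RNA levels and say nothing of the chains in a protein.

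Some gene levels rested in part on short transcript models, and this bore on the ratio between the leading genes. Models under 50% of the length of the longest coding model held more than 10% of the gene's TPM in both libraries for 8 of the 23 detected members. A short model needs few reads for a high TPM. Col3a1-205, a coding model of 737 nt, had 37.7 and 32.9 TPM from 757 and 611 expected counts, so short models held 22.8% and 21.4% of Col3a1 TPM but 3.36% and 3.02% of its counts. The full-length Col3a1-201 had 131 and 133 TPM, against 117 and 131 TPM for Col1a1-201. On reads per length of the longest coding model, Col3a1 was 1.17 and 1.04 times Col1a1, where gene TPM gave 1.45 and 1.28. In expected counts, not divided by length, Col3a1 was 1.09 times Col1a1 in replicate 1 and 0.979 times in replicate 2.

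In some other members, short models or models not annotated as coding weighed more. Col6a3-206, a retained-intron model of 646 nt, had 2.66 and 3.97 TPM from 45.7 and 63.3 expected counts, while the coding Col6a3-202 had 2.94 and 3.50 TPM from 824 and 907. The ratio of Col6a3 to Col6a1 was 0.548 and 0.644 from gene TPM, and 0.310 and 0.318 from coding models alone. Col12a1 held 75.2% and 76.7% of its TPM in short models, and its full-length Col12a1-201 had 0.31 and 0.34 TPM. Col27a1 held 45.6% and 40.1% of its TPM in coding models. For Col25a1, the model Col25a1-204, annotated for nonsense-mediated decay, had 1.49 and 1.11 TPM beside 2.00 and 1.97 TPM for the coding Col25a1-202. In contrast Col4a1, Col5a1, Col6a1 and Col8a2 held all their TPM in coding models, and 14 of the 23 detected members held over 90% there in both libraries.

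**Figure D4:**
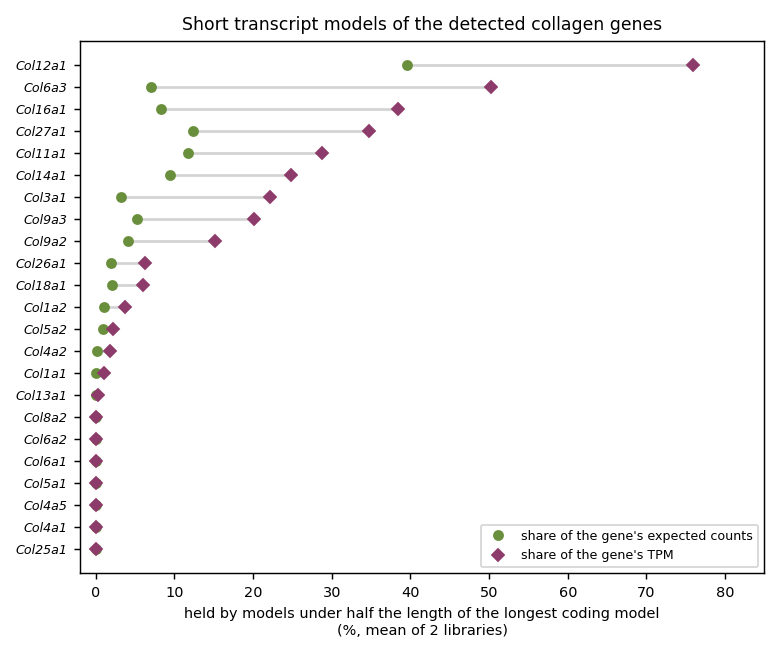
For the 23 detected collagen genes, the share (percent, mean of 2 libraries) held by transcript models under 50% of the length of the longest coding model, as a share of the gene's expected counts (circles) and of its TPM (diamonds). The diamonds lie far to the right of the circles for Col12a1, Col6a3, Col16a1 and Col27a1, and Col3a1 is the only member above 100 TPM with a share over 20% of TPM.

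Between the pools most members differed little. At a mean of at least 50 expected counts, 27 members could be compared, with a pseudocount of 0.1 TPM. Their median log2 ratio of replicate 1 over replicate 2 was -0.05 (17 lower and 10 higher in replicate 1), against 0.01 for all 13017 genes compared, and scaling by spike-in totals turned it to 0.06 while moving the median of all genes to 0.12. The median size of the log2 ratio was 0.18 for members and 0.08 for all genes. A difference was counted from 25% upward, as the higher pool over the lower. By that limit 3 members were lower in replicate 1, where 4.92% of all genes were, and 1 was higher, where 3.76% were. By 2-fold no member was lower, where 0.307% of genes were, and none higher, where 0.0538% were. Each ratio has no replicate check, and its interval, from rounded expected counts of reads without molecular identifiers, covers counting error only.

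Col13a1 differed most, with 186 and 321 expected counts. It was 1.93 times as high in replicate 2 (exact 95% counting interval 1.60 to 2.32), and the difference was seen in Col13a1-204, at 1.02 and 2.45 TPM, and Col13a1-202, at 0.46 and 1.26 TPM, while Col13a1-205 had 0.57 and 0.45 TPM. Col26a1 was 1.52 times as high in replicate 2 (1.252 to 1.86), and Col8a1 1.81 times (1.22 to 2.72) from 42 and 72 counts. Of 6 heart and skeletal muscle markers 3 were detected and none was at 0, their summed level was 23.5 and 29.4 TPM, and among the 4 with at least 50 counts on average 2 were lower in replicate 1 by the limit of 25% and none higher. Within that list Myl7 had 19.5 and 18.9 TPM and Myog 0.93 and 4.25 TPM. The others were named after their values were seen. Tnnt2 had 1.33 and 2.90 TPM and Myh6 0.31 and 0.37 TPM. Nppa, at 1.12 and 1.70 TPM, and Myod1, at 0.31 and 1.23 TPM, lay under a mean of 50 counts. The part of the muscle markers in the Col13a1 difference was not tested.

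Col9a2 was the member higher in replicate 1, by 1.34-fold (3.26 against 2.44 TPM). Part of that ratio was a short noncoding model, Col9a2-202, with 0.76 and 0.17 TPM from 15.5 and 3.19 counts, and the coding Col9a2-201 had 2.50 and 2.27 TPM. From its 238 and 190 expected counts scaled by TMM, the log2 ratio was 0.21, against 0.40 from TPM, and it no longer reached the limit of 25%. Col1a1 was 0.885 times as high in replicate 1 as in replicate 2 (0.869 to 0.902), an interval narrowed by its 21455 and 22346 counts. Stellate and mesenchymal markers, of which 9 of 10 were detected, summed to 99.8 and 104 TPM, led by Reln at 29.1 and 27.6 TPM and Acta2 at 25.6 and 30.8 TPM. By the limit of 25%, 1 of the 10 was lower in replicate 1, Pdgfra at 6.43 and 8.37 TPM, and 1 higher, Tcf21 at 10.9 and 6.99 TPM, both named after their values were seen. None was at 0, and their part in the type I difference was not tested.

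**Figure D5:**
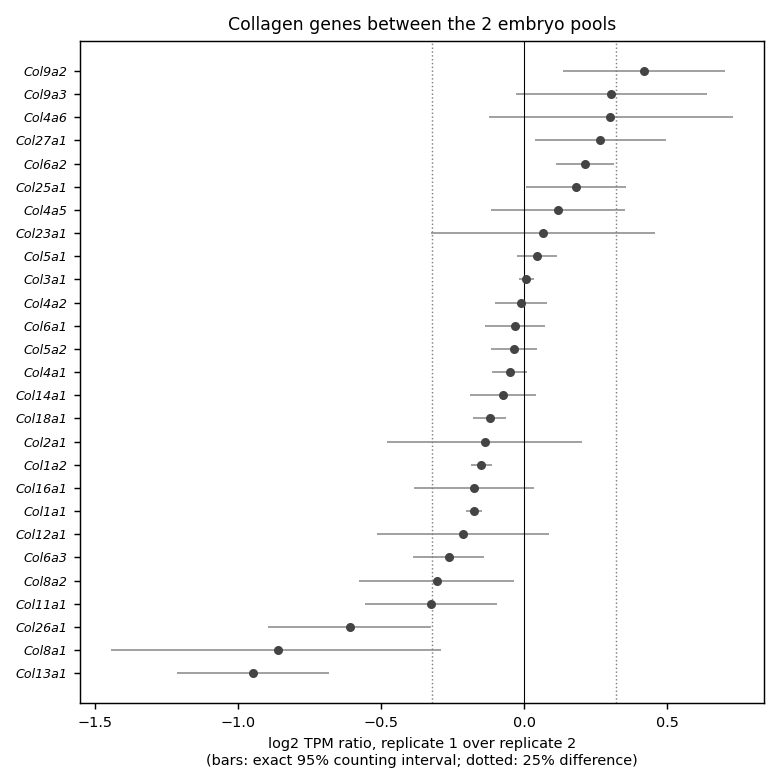
Log2 TPM ratio of replicate 1 over replicate 2, without the pseudocount, for the 27 collagen genes with a mean of at least 50 expected counts; bars are exact 95% counting intervals, and dotted lines mark the limit of 25%. Col13a1, Col8a1 and Col26a1 lie to the left, and Col11a1 touches the line here but not with the pseudocount.

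Genes that modify, fold and cleave collagen chains, and their partners, were read from set lists. Detected counts here and in the next paragraphs stand beside 54.5% of all protein-coding genes detected. By the limit of 25%, 4.92% of all genes compared were lower in replicate 1 and 3.76% higher. Of 14 genes of prolyl and lysyl modification 13 were detected. P4hb, the protein disulfide isomerase that is also a subunit of prolyl 4-hydroxylase, had 413 and 389 TPM. Next were Crtap at 29.1 and 29.6 TPM and the galactosyltransferase Colgalt1 at 24.9 and 23.9 TPM. The lowest was Colgalt2 at 0.52 and 0.50 TPM. By the limit of 25%, 2 of the 14 were higher in replicate 1, the lysyl hydroxylase Plod3 (19.7 and 15.4 TPM) and the prolyl 3-hydroxylase P3h2 (1.76 and 1.30 TPM). All 12 matched folding and secretion genes were detected, led by the chaperone Hspa5 at 583 and 567 TPM, the prolyl isomerase Ppib at 315 and 319.8 TPM and Pdia3 at 310.5 and 299 TPM, and lowest for the transcription factor Creb3l1 at 1.69 and 2.03 TPM. None passed 25%. These leading genes serve secreted proteins in general, and Serpinh1, the collagen-specific chaperone, which was not among the leading 3 and was named after its value was seen, had 200.2 and 202 TPM.

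Of 9 propeptide cleavage genes 6 were detected, led by the enhancers Pcolce at 18.8 and 17.7 TPM and Pcolce2 at 10.2 and 8.47 TPM and the protease Bmp1 at 8.15 and 8.72 TPM, while Tll2 was listed at 0 and 0.01 TPM. Of 7 cross-linking genes 6 were detected, with Tgm2 at 60.8 and 60.2 TPM, the peroxidasin Pxdn at 11.2 and 10.6 TPM, Loxl2 at 7.27 and 7.31 TPM and Loxl4 lowest at 0.07 and 0.09 TPM. Both lysyl oxidases that passed 25% were lower in replicate 1: Lox had 3.80 and 4.92 TPM and Loxl1 3.19 and 4.37 TPM.

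Among 12 fibril partners 9 were detected, led by Sparc at 138 and 147 TPM, fibronectin (Fn1) at 78.7 and 81.1 TPM and Thbs1 at 68.4 and 60.1 TPM. Tnxb was lowest at 0.04 and 0.03 TPM, and Ogn, a small proteoglycan, was lower in replicate 1 at 1.80 and 2.32 TPM. Of 15 basement membrane partners 10 were detected, and the nidogens that link type IV collagen to laminin were highest, Nid2 at 19.2 and 19.8 TPM and Nid1 at 15.4 and 17.5 TPM, followed by the proteoglycan Agrn at 14.1 and 15.5 TPM. These levels lay between those of Col4a2 and Col4a1. Lama3 was lowest at 0.01 and 0.03 TPM, and Lama2, a laminin chain of muscle, was lower in replicate 1 at 0.31 and 0.58 TPM.

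Of 10 collagen receptors 6 were detected. Itgb1, the beta chain of the collagen-binding integrins, had 112.5 and 113.1 TPM, Gp6, the collagen receptor of platelets and megakaryocytes, 5.64 and 4.76 TPM, and Ddr1 5.28 and 4.97 TPM, while Itga11 was lowest at 0.19 and 0.11 TPM. Ddr2, a receptor tyrosine kinase for fibrillar collagen, was lower in replicate 1 at 2.05 and 2.72 TPM, and the leukocyte receptor Lair1 higher at 0.90 and 0.49 TPM. Of 13 degradation genes and their inhibitors 10 were detected, led by the membrane protease Mmp14 at 31.2 TPM in each library, the gelatinase Mmp2 at 14.7 and 17.6 TPM and the inhibitor Timp3 at 14.8 and 14.1 TPM. Mmp13, a collagenase, was lowest at 0.02 and 0.05 TPM, and Timp1 was higher in replicate 1 at 4.41 and 3.20 TPM.

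Markers of other cell types were read beside these levels. All 8 endothelial markers were detected, led by Oit3 at 32.6 and 28.1 TPM and Eng at 30.8 and 28.1 TPM, and 5 of 6 mesothelial markers, led by Podxl at 20.0 and 21.3 TPM and Upk3b at 9.11 and 9.03 TPM. Of 6 gut mesenchyme and smooth muscle markers 2 were detected, Foxf1 at 14.7 and 13.0 TPM and Barx1 at 6.82 and 6.20 TPM. Among blood markers, the erythroid Slc4a1 had 795 and 844 TPM. All 4 megakaryocyte markers were detected, with Pf4 at 664 and 571 TPM and Itga2b at 77.6 and 72.1 TPM, and all 5 macrophage markers, with C1qb at 46.3 and 47.4 TPM and C1qa at 22.8 and 21.5 TPM. The share of each cell type in the collagen levels was not tested.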

How the data were processed

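Total RNA (fragments over the size limit given in the labels) from 2 pools of embryos was sequenced with spike-in RNAs. Per the file headers, the authors used assembly mm10 and GENCODE M4; which aligner and quantifier they ran, and whether strand was used, is not given in the sources used here. For a gene or transcript the deposited expected count is an estimate of its reads and need not be whole. The authors scaled TPM to a fixed total over every entry including the spike-ins, and deposited FPKM values were used only for an alternative limit of detection. Gene symbols, protein-coding status and coordinates came from GENCODE M21 on mm10, which matched 42462 of 43346 mouse gene IDs. The structural classes of the collagens came from a set list and not from the annotation.

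Levels were read from TPM with no filter, and detection meant at least 1 TPM in both libraries. Means and SD are over 2 libraries, which the labels number as biological replicates from separate pools; no significance test was made. Pool ratios used a pseudocount of 0.1 TPM and a mean of at least 50 expected counts, a difference being counted from 25% upward, with exact (Clopper-Pearson) 95% intervals from rounded expected counts, and chain ratios needed at least 10 expected counts in each chain and library. The 2-fold call and the interval were run on simulated counts with larger planted changes and a smaller pseudocount. That run says nothing of the calls at 25%. Scripts used Python 3.11.15, pandas 2.3.3, numpy 2.4.6, scipy 1.17.1 and matplotlib 3.10.9; edgeR 4.0.16 and DESeq2 1.42.0 in R 4.3.3 gave scaling factors only. Depth was 37.6 M and 34.7 M expected counts, and a count of 0 allows up to 3 counts. Effective length was taken as model length less 99 nt.

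The repeat, planned from reference proteins, was read from GENCODE coding sequences instead, in the coding model with the longest coding sequence. One folding and secretion gene on the list was not matched and is not analysed here. Named genes were the detected members, members of a chain ratio or with a mean of at least 0.1 TPM, the 3 highest and the lowest of each pathway list with any that differed by 25% between pools, and the 2 highest of each marker list. Col5a3 and Col4a4 were named outside this rule, as were the genes said to be named after their values were seen. One marker that the rule would name is not reported here. Members, lists and this rule were chosen with earlier results of these data known. Alternatives were other scalings, filters, pseudocounts, transcript models and each library alone.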

Additional observations from a re-analysis of the deposited data

How the results depend on the processing

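Alternatives that used reads per length of the longest coding model, and pool ratios from expected counts over library totals, were chosen after seeing the data. With 2 libraries, the value of each alone lies within the spread by construction and shows nothing of stability; Col18a1 over Col15a1, for one, was 126 and 280 in single libraries. Detected members numbered 25 at a limit of 0.5 TPM, 18 at 2 TPM and 23 at an FPKM of 1, against 23. The share of all protein-coding genes at these other limits was not taken. The collagen share of TPM became 0.0789% without globin genes, 0.0624% over protein-coding genes and 0.238% in expected counts, where long genes weigh more. The fibrillar share became 76.2% in expected counts, in coding models and by the longest model. The basement membrane share became 8.19%, 6.72% and 7.21% in the same order and the beaded filament and anchoring fibril share 5.05%, 5.74% and 5.72%, while the multiplexin share became 6.08%, 6.45% and 5.56%. In the same order of settings, Col1a1 over Col1a2 became 1.81, 1.65 and 1.63, Col6a3 over Col6a1 0.697, 0.314 and 0.279, and Col9a2 over Col9a3 1.39, 1.43 and 1.45. Col3a1 over Col1a1 became 1.04 in counts, with 0.979 in replicate 2, where Col1a1 had more reads, and 1.11 by the longest model, and Col4a5 over Col4a6 3.18 and 3.23. In counts Col4a1 over Col4a2 became 2.25 and Col5a1 over Col5a2 1.32, and by the longest model Col6a1 over Col6a2 became 1.09. The median coding share was 98.4% in counts against 96.0% in TPM. The members' median log2 pool ratio was -0.029 with TMM, -0.030 with DESeq2 size factors, 0.065 with spike-in totals, -0.036 with counts over library totals, and -0.10 at a mean count of at least 10 or with no filter. Members lower by 25% numbered 7 at a count of at least 10 and 9 with no filter, against 3. Those higher numbered 5 with spike-in totals and 0 with a pseudocount of 1, against 1. At a count of at least 10 they numbered 4, and with no filter 5. The main setting compared 27 members and no filter all 44, and spike-in totals also moved the median of all genes to 0.12. The share of all genes past 25% was taken for the main setting only, so the counts under other settings have no background. Col13a1 and Col26a1 passed 25% under every setting run on both libraries, Col8a1 under all but a pseudocount of 1, and with TMM, DESeq2 size factors or counts over library totals Col9a3 took the place of Col9a2 and Col11a1 joined those lower. The cause of these moves was not tested, beyond what the settings' own construction fixes. No paired analysis was possible because there is 1 group. Depth limits the members under 50 counts, where single reads move a ratio.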

Other observations

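The 19 genes counted outside the family, with runs made up largely of glycine codons left out, included complement and adiponectin-related genes, collectins and scavenger receptors. Each held an in-frame run of at least 20 glycine-led units. Their levels were read in the same way as those of the collagens. The complement gene C1qb was highest, at 46.3 and 47.4 TPM with a run of 29 units, a level above that of Col18a1. The collectins Colec11 (14.6 and 14.4 TPM), Colec12 (10.4 and 10.0 TPM) and Colec10 (8.98 and 8.99 TPM) followed with the scavenger receptor Marco (11.3 and 10.4 TPM), whose run of 81 units was the longest of the 19. Emid1 had 7.94 and 7.78 TPM and Msr1 3.28 and 2.85 TPM. Otol1 had no read in either library. These genes were named after their values were seen, and no test was made on them.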
